A study of Xenopus laevis with 20 samples.

Results

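Animal caps of Xenopus laevis that carried Gata4-GR together with Dkk1 were compared with caps that carried Dkk1 without Gata4-GR. The arrays were chosen by their titles: 4 arrays of Gata4-GR+Dkk1 and 4 arrays of Dkk1, 8 of the 20 arrays of the study. Both sides hold Dkk1 RNA, so the comparison has an injected control. It asks which transcripts answer Gata4 in the presence of Dkk1, an inhibitor of canonical Wnt signalling. Whether that signalling was inhibited in these caps was not checked. The other groups were uninjected caps, Gata4-GR caps and Gata5-GR caps, with 4 arrays each. Per the labels, embryos of the injected groups received 10 ng of each mRNA at the 1-cell stage. Caps were cut at stage 9 and kept for 2.5 hours in cycloheximide and dexamethasone, and the uninjected caps were given both drugs too. A Gata4-GR+Dkk1 embryo therefore received 1 more mRNA than a Dkk1 embryo. The labels name no filler RNA in the Dkk1 group, so Gata4-GR and the extra amount of RNA cannot be told apart. The injected RNA was not limited to a cell type by a promoter. The Dkk1 construct was not described as a GR fusion, so by design only the Gata4 side of the pair waits for the drug. No group was kept without dexamethasone, so whether Gata4-GR was inactive before the drug was not tested.

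Gata4 is a zinc-finger transcription factor that binds GATA motifs and takes part in the formation of endoderm and of heart mesoderm. Fused to the hormone-binding part of the glucocorticoid receptor (GR), it is held inactive until dexamethasone is added. Cycloheximide blocks protein synthesis, so a transcript that changes with both drugs present need not wait for a newly made intermediate protein. Dkk1 is a secreted protein that binds the Wnt co-receptors Lrp5 and Lrp6 and so blocks canonical Wnt signalling, the pathway that acts through beta-catenin. The animal cap is the roof of the blastula, which forms ectoderm by default and can be turned towards mesoderm or endoderm by factors of this kind.

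No row below carries a gene name. The identifiers listed beside the signals were checked first, by asking whether rows that should read related transcripts did so. X. laevis keeps an L and an S copy of many genes, and over 1017 such listed pairs the median log2 signals of both copies correlated at -0.014, where a value above 0.3 was required. Where 1 symbol is listed for rows of different sequence clusters, those rows followed each other over the arrays at a mean correlation of 0.00091 in 1109 pairs, below the 0.033 of 13525 neighbouring pairs. Each row is therefore named by its place in the deposited table, with the top row as 1. For the same reason the lists of endoderm, mesoderm, heart and Wnt target genes were not used, the labelled tissue was not checked against its markers, and no level of gata4 or dkk1 RNA can be given. In bulk RNA of a cap, fewer cells of a type and less RNA per cell cannot be told apart. Separate embryo batches are not stated for the replicates, so a p-value refers to the spread among these arrays, and part of that spread may be technical.

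Levels are log2(signal + 16) after quantile normalization, and a difference is the mean of Gata4-GR+Dkk1 less the mean of Dkk1 on that scale, which understates the change of dim rows. In the fit with replicate number as a block, 4 rows of 15491 were called higher at a Benjamini-Hochberg adjusted p under 0.05 by limma, which is 0.0258% of the rows, and 0 were called lower. An unadjusted p under 0.05 was reached by 571 rows, 3.69% of those tested, where chance would give 774.55. Of the 571 rows, 285 were higher and 286 lower. The count depended on the fit. Fitting only the compared arrays gave 765, leaving out Gata4-GR replicate 1 gave 764, and array weights gave 874. Without the block it was 341, and with no normalization between arrays 326. A count below chance is therefore not shown to be a trait of the compared arrays. Only 2 of the 4 called rows, rows 5066 and 11897, were also called without the block. Array medians ran from 59.2 to 74.9 with Dkk1 and from 62.9 to 83.7 with Gata4-GR+Dkk1.

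Row 5066 had the largest difference in the table. Its signals in Dkk1 replicates 1 to 4 were 30.8, 91.4, 45 and 198. In Gata4-GR+Dkk1 replicates 1 to 4 they were 1430.2, 1416.9, 868.4 and 2124. The lowest array with Gata4-GR thus read above the highest without it, and the row moved from a low to a high signal in every pair of the same number. Its normalized level was 6.69 ± 1.04 (SD, n = 4) in Dkk1 caps and 10.57 ± 0.36 (SD, n = 4) in Gata4-GR+Dkk1 caps. The log2 difference was 3.88 (SE 0.30, 95% interval 3.25 to 4.52, limma adjusted p = 5.957e-06). It was higher in 4 of 4 pairs, by 4.75, 3.82, 4.12 and 2.85. The smallest difference was in replicate 4, where the Dkk1 array had the highest reading of its group.

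The uninjected arrays read 2.3, 1.3, 2.7 and 1.8 in row 5066, so the Dkk1 caps were not at the uninjected background. Dkk1 caps exceeded uninjected caps by 2.53 on the log2 scale (SE 0.30, limma adjusted p = 0.001557), although neither group was given a Gata RNA, and 3 rows in all, 0.0194% of the table, were called between those groups. Without the block that difference of row 5066 was not called. Gata4-GR arrays read 1709.8, 2800.2, 1863.9 and 6271.5, and Gata5-GR arrays 1223.2, 4912.1, 1897.5 and 5420.5. All 12 arrays of the groups with a GR fusion thus read above all 8 arrays without one. Both GR fusions were injected, so a reading of the injected RNA and a transcript that answers Gata4 and Gata5 cannot be told apart in this row. The Dkk1 caps held no GR fusion, and what raised this row in them above the uninjected caps was not tested.

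Row 11897 was a dimmer row, at the 39.07 percentile of mean level. Dkk1 replicates 1 to 4 read 14.8, 15.9, 24.6 and 17.4, and Gata4-GR+Dkk1 replicates 1 to 4 read 75.2, 32, 53.4 and 70. The groups did not overlap, and the Dkk1 readings lay close to those of the uninjected arrays, which were 17.7, 15.8, 17.5 and 28.9. The level was 5.18 ± 0.15 (SD, n = 4) in Dkk1 caps and 6.25 ± 0.32 (SD, n = 4) in Gata4-GR+Dkk1 caps. It rose by 1.06 (SE 0.12, 95% interval 0.81 to 1.32, limma adjusted p = 6.791e-04), in 4 of 4 pairs. Gata4-GR arrays of this row read between 45.6 and 117.4 and Gata5-GR arrays between 50.3 and 75.8. Its call was lost when the other 12 arrays were left out of the fit (adjusted p = 0.1716), and over the alternatives the adjusted p ran from 4.473e-04 to 0.1716.

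Row 2207 had Dkk1 signals of 9.4, 13.9, 14.8 and 11.3 and Gata4-GR+Dkk1 signals of 40.3, 41, 29.7 and 46.1, in order of replicate number. These groups did not overlap, and the spread within each was small. The level was 4.88 ± 0.09 (SD, n = 4) in Dkk1 caps and 5.85 ± 0.14 (SD, n = 4) in Gata4-GR+Dkk1 caps. The log2 difference was 0.97 (SE 0.16, 95% interval 0.64 to 1.30, limma adjusted p = 0.03718), higher in 4 of 4 pairs. Uninjected arrays read 19.5, 12.6, 26.8 and 35.9, a wider range that reached into the Gata4-GR+Dkk1 values. The call was the least secure of the 4: it was lost in 19 of 23 alternatives, among them the fit without the block (adjusted p = 0.1112, in a range of 0.01395 to 0.7165) and the removal of any 1 of the 8 arrays.

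Row 8294 had Dkk1 signals of 5.3, 5.9, 16.8 and 16.6 and Gata4-GR+Dkk1 signals of 29.6, 21.8, 31 and 26.9. The groups did not overlap, but Dkk1 replicates 3 and 4 lay closer to the other group than replicates 1 and 2. The level was 4.79 ± 0.38 (SD, n = 4) in Dkk1 caps and 5.51 ± 0.16 (SD, n = 4) in Gata4-GR+Dkk1 caps. The log2 difference was 0.72 (SE 0.11, 95% interval 0.48 to 0.96, limma adjusted p = 0.03718). The pairs differed by 1.04, 0.96, 0.66 and 0.20, all upward. In this row the Gata5-GR arrays read 6.7, 12.2, 21.4 and 20.5, close to the uninjected values of 8.7, 11.3, 20.8 and 24.3. Gata4-GR against Gata5-GR differed there by 0.63 (95% interval 0.39 to 0.87), which was not called over all rows (limma adjusted p = 0.287). The call of row 8294 was lost in 17 of 23 alternatives, among them the fit without the block (adjusted p = 1.00, in a range of 0.001927 to 1.00) and the removal of replicate 1, 2 or 3 of either group.

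**Figure D1:**
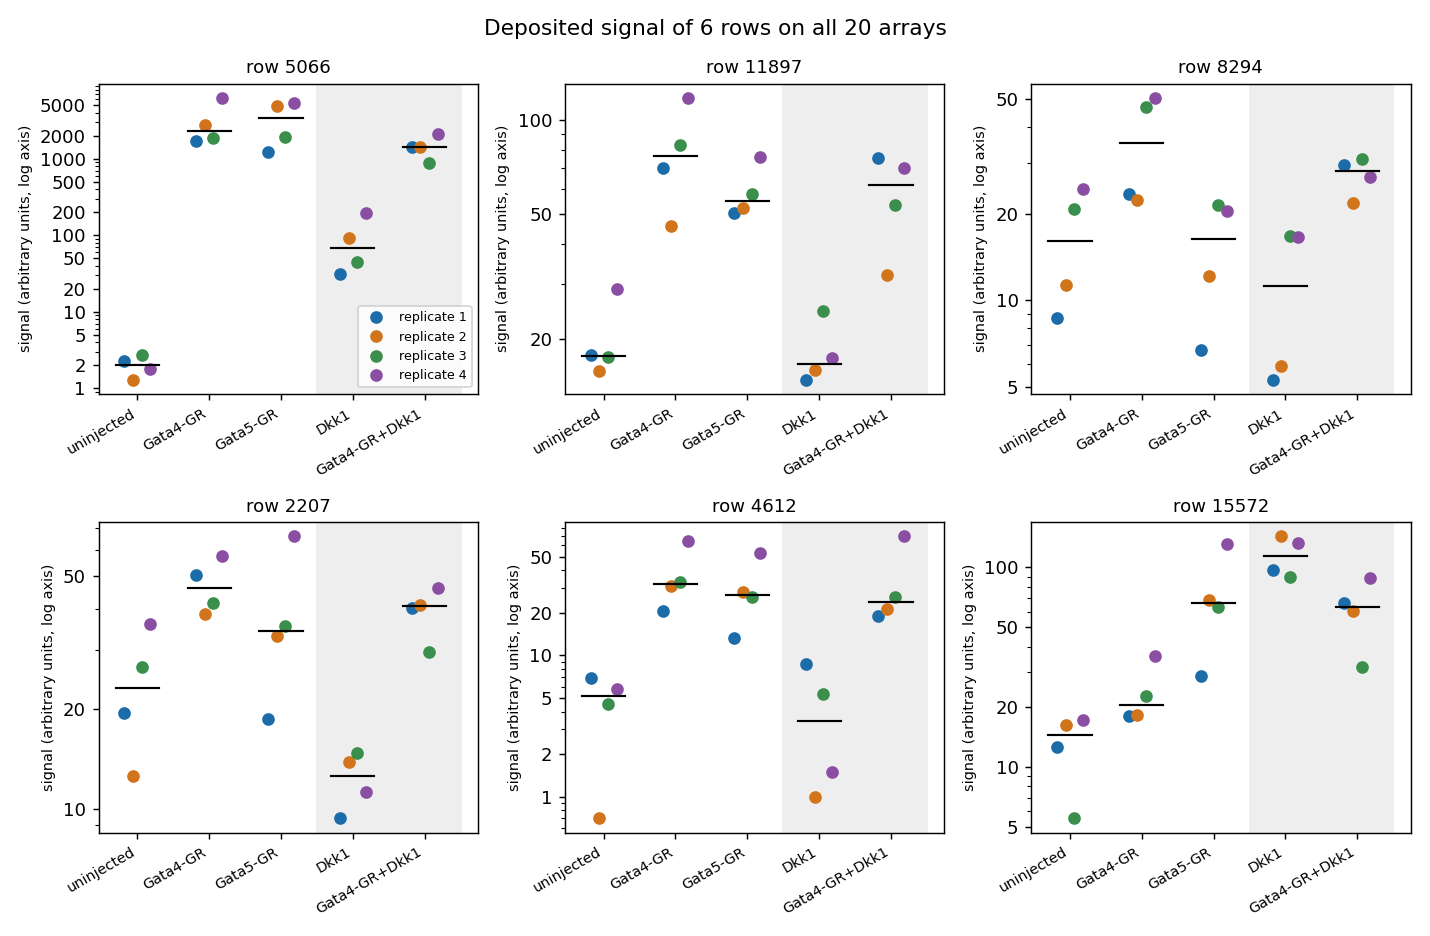
Deposited signal in arbitrary units, on a log axis, in each of the 20 arrays by group, for the 4 called rows and rows 4612 and 15572. Points are arrays coloured by replicate number, lines are group medians, and the shading marks the compared groups. In rows 5066, 11897, 8294, 2207 and 4612 all 4 Gata4-GR+Dkk1 arrays lie above all 4 Dkk1 arrays, and in row 15572 all 4 lie below.

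Signals that did not overlap between the groups were found in 178 rows, 1.15% of all rows, and in 119 rows, 0.768%, the Gata4-GR+Dkk1 arrays were all above the Dkk1 arrays. All 4 called rows were among the latter. Most rows whose signals were apart were thus not called. Rows called higher on these same arrays tend to be apart in this way. The signals were counted before normalization, and array medians ran lower with Dkk1, at 59.2 to 74.9 against 62.9 to 83.7. The part of array brightness in these counts was not tested.

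The 3 rows next in order of p did not pass the threshold and were singled out after their values were seen. Row 4612 read 8.7, 1, 5.3 and 1.5 in Dkk1 arrays and 18.9, 21.4, 26 and 69.3 in Gata4-GR+Dkk1 arrays. All values with Gata4-GR lay above those without it, and the log2 difference was 1.25 (SE 0.21, limma adjusted p = 0.06057). It was called in 5 of 23 alternatives: without all arrays numbered 1, without Dkk1 replicate 1, with rows above the 25th percentile tested, with array weights, and with the block as a random effect. Row 13624 went the other way, from 13.1, 18.7, 17.4 and 11 to 0.9, 2.1, 4.1 and 1.2. Its log2 difference was -0.84 (SE 0.15, limma adjusted p = 0.07237), and it was called in 2 of 22 alternatives, array weights and the block as a random effect. The uninjected arrays read 3.1, 2.3, 2.6 and 11 in this row, so the Gata4-GR+Dkk1 values were near the uninjected ones and the Dkk1 values above most of them.

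Row 15572 had lower values with Gata4-GR as well. Dkk1 replicates 1 to 4 read 97.2, 142.9, 89.6 and 132.2, and Gata4-GR+Dkk1 replicates 1 to 4 read 66.3, 60.7, 31.6 and 88.8. The difference was even across the pairs, at -0.82, -0.98, -1.01 and -0.91, with a fitted log2 of -0.93 (SE 0.18, limma adjusted p = 0.1317). Uninjected arrays read between 5.5 and 17.1 and Gata4-GR arrays between 18 and 35.9, so every Dkk1 array stood above them, and of the Gata4-GR+Dkk1 arrays only replicate 3 reached into the Gata4-GR range. Gata5-GR arrays of this row read 28.4 to 130.7. Against uninjected caps, row 15572 was called higher in Dkk1 caps, by 2.45 (limma adjusted p = 1.731e-06). It was called higher in Gata5-GR caps too, by 1.55 (limma adjusted p = 5.296e-04). Row 2234 was high in both Dkk1 groups. It read 458.5, 633.8, 645.4 and 483.7 in Dkk1 arrays and 466.2, 556.9, 481.7 and 612.3 in Gata4-GR+Dkk1 arrays. Its signals overlapped, its normalized level was lower with Gata4-GR in 4 of 4 pairs, by 0.095 to 0.32, and the fitted difference was -0.18 with a 95% interval of -1.21 to 0.86. That interval uses the spread of all groups, which in this row was 1.52 (SD, n = 4) in Gata5-GR caps and 0.10 (SD, n = 4) in Dkk1 caps, and it does not show the groups to be equal.

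Among rows brighter than the median row, 9 of 7745 rows, 0.116%, had an unadjusted p under 0.01 and the same direction in 4 of 4 pairs. Row 5066 was among them. The other 8 had adjusted p-values of 0.9996 and did not pass the test. Rows 8871, 5255, 1667, 9035 and 10596 had positive log2 differences of 0.55, 0.50, 0.48, 0.32 and 0.30. Rows 10368, 3225 and 10607 had negative ones of -0.40, -0.38 and -0.30. The signals of row 8871 were 29.6, 67.8, 51.5 and 91 in Dkk1 arrays and 111.4, 91.9, 62.2 and 140.6 in Gata4-GR+Dkk1 arrays, which overlap. Row 10607 read 158.7, 177.1, 238.3 and 182.1 in Dkk1 arrays and 196.9, 142.6, 149.3 and 164.5 in Gata4-GR+Dkk1 arrays, which overlap as well. In replicate 1 its signal was higher with Gata4-GR although its normalized level was lower, and the arrays of that pair differed in overall brightness.

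The rest of the table differed little between the groups. The median log2 difference was -0.0021 and the SD over rows 0.14. In 15385 rows, 99.32% of the table, the 95% interval of the difference lay within 1 log2 unit of no change. These intervals use the spread of all groups, not that of the compared arrays alone. Rows 5066, 11897, 4612 and 1330 were higher by more than 1 log2 unit, and row 8638 was lower by more than that, with a log2 of -1.11 (limma adjusted p = 0.9996). Row 1330 read 8.4, 47.1, 51.6 and 43.5 in Dkk1 arrays and 106.3, 84.5, 75.5 and 169.3 in Gata4-GR+Dkk1 arrays, and its difference of 1.23 on the log2 scale missed the threshold (limma adjusted p = 0.5517). Rows above the median level had 88 differences at an unadjusted p under 0.05 against 387.25 that chance would give, and the dimmer rows had 483 against 387.3. Those counts use the spread of all groups as well, and the split by level was not repeated with the compared arrays alone. A bound of 1 log2 unit on the log2(signal + 16) scale says less of a dim row, whose true change is understated there.

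**Figure D2:**
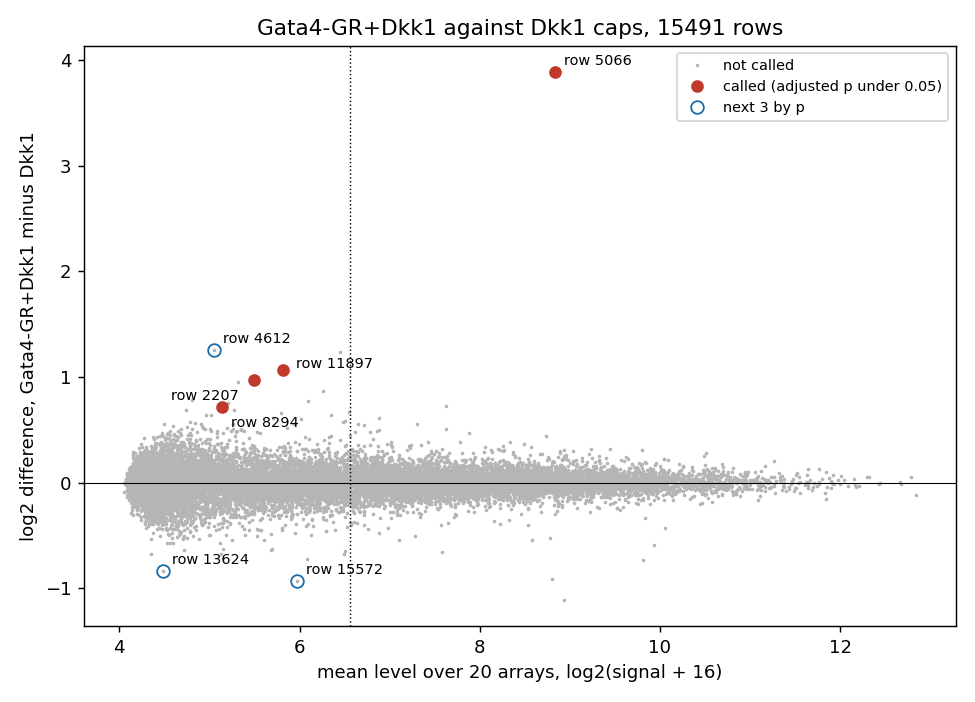
Log2 difference of Gata4-GR+Dkk1 and Dkk1 caps against mean level, log2(signal + 16), over all 20 arrays, 1 point per row for 15491 rows. The 4 called rows and the 3 next by p are marked, the dotted line is the median level, and most rows lie close to 0 around a median of -0.0021.

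The next question was whether Gata4-GR acted alike with and without Dkk1. Gata4-GR caps were compared with uninjected caps in the same fit. That comparison shares no array with the first, but it shares the replicate numbers and the spread estimated for each row. A row called in both is therefore not separate evidence. The uninjected caps received no RNA, so Gata4-GR and the injection of RNA cannot be told apart there. The Gata4-GR effect without Dkk1, and every contrast built on it, carries this limit. Gata4-GR replicate 1 stood apart, with a mean correlation of 0.959 with the other arrays and an array weight of 0.12. The 8 arrays with Dkk1 had mean correlations of 0.975 to 0.979. In Gata4-GR against uninjected, 4 rows were called, 0.0258% of the table, and 2 without the block. Of the 4 rows called with Dkk1, rows 5066 and 11897 were among them. Row 5066 differed there by 7.12 (limma adjusted p = 3.836e-10) and row 11897 by 1.29 (limma adjusted p = 4.252e-05). Without Gata4-GR replicate 1 these values were 7.21 and 1.31. When each comparison was fitted on its own arrays alone, row 5066 was called in both and row 11897 in neither. The remaining called rows of the Dkk1 comparison were higher without Dkk1 too, but were not called there. Row 8294 had a log2 difference of 0.63 (limma adjusted p = 0.09622) and row 2207 one of 0.68 (limma adjusted p = 0.2635).

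The difference between the Gata4-GR effects was itself tested, as the effect with Dkk1 less the effect without it. It was called in 1 row, 0.00646% of the table, and 741 rows, 4.78%, had an unadjusted p under 0.05. That row was row 5066, in which the difference was -3.23 (SE 0.43, 95% interval -4.13 to -2.34, limma adjusted p = 0.01226). Its level in Gata4-GR+Dkk1 caps less that in Gata4-GR caps was -0.70 (SE 0.30, limma adjusted p = 0.6664, in a comparison that called 0.00646% of the rows), so the larger share of the -3.23 was the higher level of Dkk1 caps over uninjected caps. Because the uninjected signals were smaller than the 16 added to them, the contrast changed size with that constant: it was -5.61 with a pseudocount of 1 and -1.95 with 64, where it was not called (adjusted p = 0.6564). The call was also lost without the block (adjusted p = 0.9896, in a range of 5.527e-04 to 0.9896). Leaving out arrays ended it as well, namely without Gata4-GR+Dkk1 replicate 2 or 4, Gata4-GR replicate 2 or 4, uninjected replicate 2, or all arrays numbered 2, 3 or 4. Without Gata4-GR replicate 1 the difference was -3.33 (adjusted p = 0.04018).

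For row 11897 the effects with and without Dkk1 differed by -0.23 with a 95% interval of -0.58 to 0.13. The intervals were -0.25 to 0.43 for row 8294, -0.17 to 0.75 for row 2207 and -0.65 to 0.63 for row 4612. None of these rows was called for the difference, and each interval includes 0. Each also allows a difference of a sizeable part of the effect itself, so equal effects are not shown. Rows 15572 and 13624, which had negative differences with Dkk1, had positive ones without it. Row 15572 had a log2 difference of -0.93 with Dkk1 and of 0.43 without it, a contrast of -1.36 that was not called over all rows (limma adjusted p = 0.3297). Row 13624 had a log2 difference of 0.23 without Dkk1, with a 95% interval of -0.09 to 0.54 and a rise in only 2 of 4 pairs. A change of sign is thus not shown for this row. Its contrast of -1.07 was not called either (limma adjusted p = 0.3589).

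**Figure D3:**
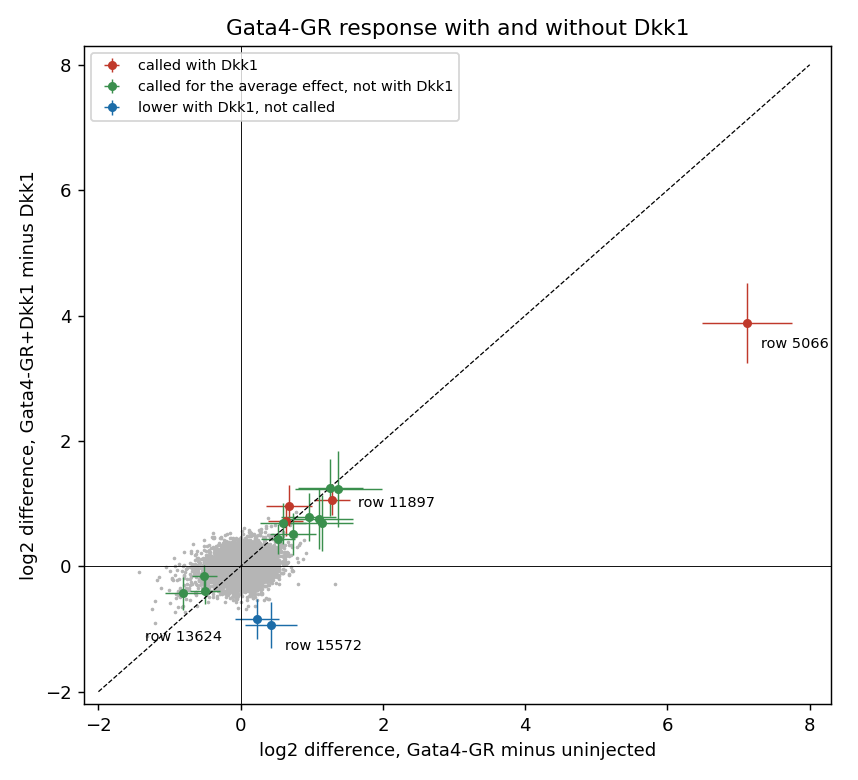
Log2 difference of Gata4-GR and uninjected caps on the horizontal axis against that of Gata4-GR+Dkk1 and Dkk1 caps on the vertical axis, with 95% intervals for the marked rows and a dashed line of equal effects. Rows 11897, 8294, 2207 and 4612 lie near that line, and row 5066 lies below it at 7.12 and 3.88.

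Across all rows the effects with and without Dkk1 had a Pearson correlation of 0.22 over 15491 rows, and of 0.17 without row 5066. These points share the replicate numbers and the probes, so the value is a description. It was 0.20 without row 5066 and without Gata4-GR replicate 1. Of the 13 rows higher with Dkk1 at an unadjusted p under 0.001, 12 were also positive without Dkk1 and 10 were positive in Gata5-GR against uninjected. Of the 7 rows lower at that level, 3 were also negative without Dkk1 and 2 were negative in Gata5-GR against uninjected. Over all rows the sign was shared in 52.86% with Gata4-GR against uninjected and in 52.03% with Gata5-GR against uninjected.

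The values of Gata5-GR against uninjected caps stand beside these as a description, since that comparison shares its uninjected arrays with the Gata4-GR one. That comparison has no injected control either. It called 7 rows, 0.0452% of the table. Row 5066 differed there by 7.30, row 11897 by 1.16, row 4612 by 1.13 (limma adjusted p = 0.09757) and row 2207 by 0.51. Row 8294 differed by 0.00020, with signals as given above.

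A further contrast took the mean of the Gata4-GR effects with and without Dkk1, each against its own control, so that all 16 arrays bear on it. Of these controls, the uninjected caps held no injected RNA. This contrast was added after the values were seen, and it includes the comparison with Dkk1, so its rows are no separate evidence. It called 15 rows, 0.0968% of the table, with 12 higher (0.0775%) and 3 lower (0.0194%). All 15 kept their sign in 4 of 4 pairs in each of the comparisons. A call for the mean effect favours such rows, and their share over the whole table was not counted. Rows 5066, 11897, 8294 and 2207 were among the 15, with mean effects of 5.50, 1.18, 0.67 and 0.82. Row 4612 was called at 1.26 (limma adjusted p = 8.911e-04).

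Of the other rows called for the mean effect, 7 were higher and 3 lower. Row 1330 had a mean effect of 1.30 (limma adjusted p = 0.01385). Row 3618 read 3.4, 1.7, 10 and 2.8 in Dkk1 arrays and 19.9, 15.3, 14.5 and 25.1 in Gata4-GR+Dkk1 arrays, and its mean effect was 0.87 (limma adjusted p = 0.00808). The Gata4-GR+Dkk1 arrays of this row were all above the Dkk1 arrays. Row 821 read 3, 0.7, 4 and 0.9 in Dkk1 arrays and 8.4, 11.2, 17 and 14 in Gata4-GR+Dkk1 arrays, again without overlap. Its mean effect was 0.64 (limma adjusted p = 0.02871), and it was called in Gata5-GR against uninjected at 1.23. Rows 2127, 3567, 3389 and 1175 had mean effects between 0.48 and 0.92. All 4 of these had Gata4-GR+Dkk1 signals above every Dkk1 signal, as 0.768% of all rows had. Rows called for a mean rise on these same arrays tend to be apart in this way.

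On the lower side, row 15271 had the largest mean effect, -0.62 (limma adjusted p = 0.00434). It read 51, 45.9, 44.2 and 43.4 in Dkk1 arrays and 45.6, 21.7, 34.1 and 36.3 in Gata4-GR+Dkk1 arrays, where replicate 1 reached into the Dkk1 range. Row 13967 had a mean effect of -0.45 and row 2140 one of -0.33. In row 2140 the log2 difference was -0.51 without Dkk1 and -0.16 with it. Of the 15 rows, rows 3567, 3389 and 1175 were no longer called without Gata4-GR replicate 1, when the count was 13. The count was 7 without Gata4-GR+Dkk1 replicate 1, 8 without Gata4-GR replicate 4, and 9 without Gata4-GR+Dkk1 replicate 4 or Dkk1 replicate 2. Leaving out all arrays of a number gave 7, 2, 6 and 5 for numbers 1 to 4, and without Gata4-GR replicate 3 the count was 20. Without the block 7 rows were called.

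**Figure D4:**
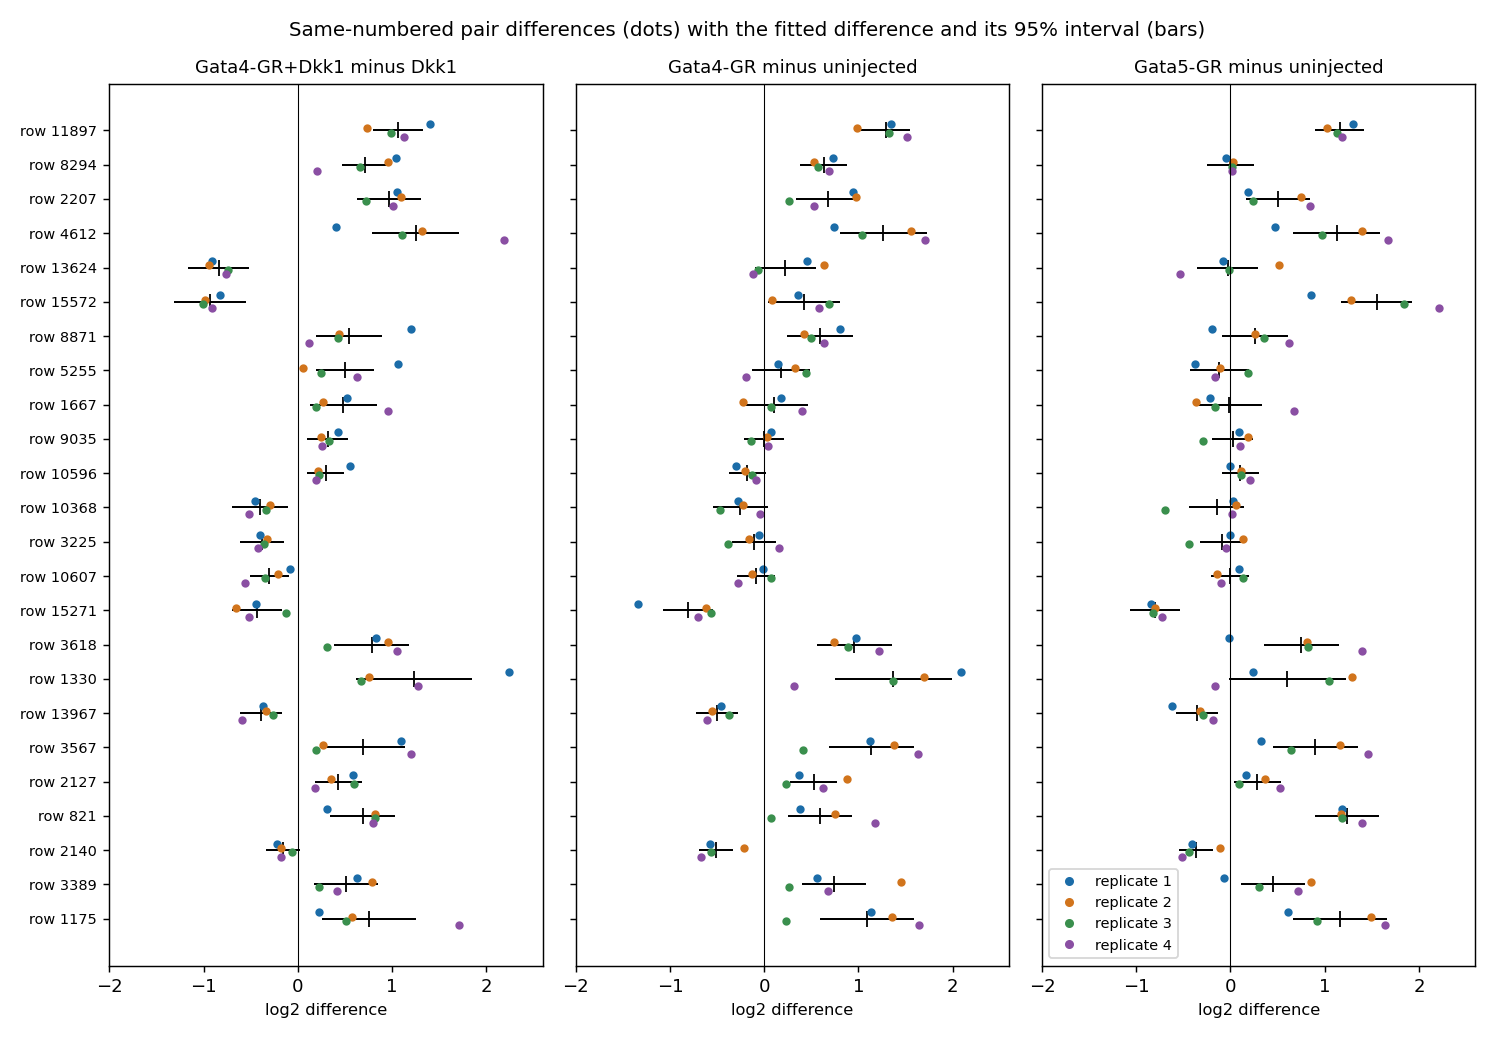
Log2 difference within each of the 4 same-numbered pairs (dots) and the fitted difference with its 95% interval (bars), for the named rows other than rows 5066, 2234 and 8638, in Gata4-GR+Dkk1 less Dkk1, Gata4-GR less uninjected and Gata5-GR less uninjected. The 4 pairs of row 15572 lie between -1.01 and -0.82 in the first panel and above 0 in the others.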

How the data were processed

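Biotin-labelled RNA of 20 animal cap samples was read on single-colour oligonucleotide arrays, labelled by the array maker's standard protocol per the labels. The deposited table holds linear intensity values of 15611 rows, from 0.1 to 10929, with array medians of 59.2 to 101. What software made them is not stated here, the number of arrays limits precision.

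Each signal had 16 added, was taken to log2 and was quantile normalized. The 120 rows listed as controls were then left out, leaving 15491. That listing comes from the identifiers that failed the check. The rows left out need not be controls, and true controls may be among the rows tested. With all 15611 rows tested, the same 4 rows were called in Gata4-GR+Dkk1 against Dkk1. A model with a mean for each group and the replicate number as a block was fitted to all 20 arrays with limma 3.58.1 (R 4.3.3). Moderated tests (eBayes) were two-sided, with p-values adjusted by Benjamini-Hochberg over all rows, and the code was tested on simulated data. Groups and numbers came from the titles. Deviations from the group means correlated at 0.38 to 0.60 between same-numbered Dkk1 and Gata4-GR+Dkk1 arrays and at -0.33 to -0.053 otherwise, and every pair passed the bound of 0.1. Gata4-GR and uninjected replicate 1 missed it, at 0.060.

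Rows named are those called with or without the block or in the contrast with and without Dkk1, and rows above the median level with an unadjusted p under 0.01 and 1 direction in 4 of 4 pairs, up to 10 a side. Others were singled out after their values were seen. Members, lists and rules were chosen with earlier results of these data known. Gene lists were not used, for want of reliable identifiers.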

Additional observations from a re-analysis of the deposited data

Results flagged for a closer look

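Over the named rows, 52 groups of 4 normalized Dkk1 or Gata4-GR+Dkk1 levels were examined for an array far from the other 3. In all, 2 were found, where chance gives about 2.6. In row 10596, Gata4-GR+Dkk1 replicate 3 had a level of 6.385 and the other arrays of its group 6.809 to 6.85. Its signal was 54.5 against 81.8 to 106.2, on an array with a median of 62.9, the lowest of its group. In row 1330, Dkk1 replicate 1 had a level of 4.689 and the others 6.099 to 6.162. Their signals were 8.4 against 43.5 to 51.6.

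The Gata4-GR effect with Dkk1 less that without it stood out in 3 of the named rows, and only named rows were searched. In row 5066 it was -3.23 and passed the test over all rows. In row 15572 it was -1.36, and all 4 pairs fell with Dkk1 and all 4 rose without it, but the test over all rows did not call it (limma adjusted p = 0.3297). In row 10596 it was 0.48, with all 4 pairs higher with Dkk1 and all 4 lower without it (limma adjusted p = 0.8937). That row was named for having 1 direction in 4 of 4 pairs with Dkk1, so that part was set by the choice. How many rows of the whole table have such opposite pairs was not counted.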

How the results depend on the processing

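For Gata4-GR+Dkk1 against Dkk1, 4 rows were called with the replicate block. The count was 2 without the replicate block, with a pseudocount of 1 or 64, with median centring, with no normalization between arrays, with a prior variance that follows the level, or at an adjusted p under 0.01. Fitting just the 8 compared arrays, or testing rows above the 50th percentile alone, gave 1, and array weights gave 7 (5 higher, 2 lower). Rows above the 25th percentile gave 5 higher, with row 4612 gained. The replicate block as a random effect gave 4 higher and 1 lower, with rows 4612 and 13624 gained and row 8294 lost. Leaving out 1 compared array or 1 replicate number gave 2 to 3. Leaving out 1 Gata4-GR or uninjected array, which enter only the shared spread, gave 2 to 4 higher and 0 to 1 lower. Row 5066 was called in all 24 alternatives, at a log2 of 3.32 to 4.23, and row 11897 in 22 of 23, at 0.56 to 1.51. The contrast with and without Dkk1, called in 1 row, was called in 0 without the replicate block or with a pseudocount of 64, in 2 (rows 5066 and 15572) with only the arrays of its groups, and in 0 to 1 with an array or number left out. The 2 rows shared with Gata4-GR against uninjected became 1 with only the compared arrays or rows above the 50th percentile. They became 3, with row 4612 gained, with rows above the 25th percentile or the block as a random effect. With an array or number left out, 2 to 3 rows were shared. The mean effect, called in 15 rows, was called in 7 without the replicate block, 9 with either other pseudocount, 2 with rows above the 50th percentile, and 2 to 20 with an array or number left out. No direction reversed. A filter tests fewer rows and a smaller fit has fewer arrays; the cause of the other changes was not tested. Tests of gene lists were not run.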
